A study of Mus musculus with 12 samples.

Results

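The messages bound to rod ribosomes were compared between mice that lack the transporter gene Abca4 (Abca4Ko) and controls. The comparison used the 6 rod TRAP libraries, 3 of each genotype, of the 12 libraries of the series. The other 6 came from the retinal lysate of the same 2 genotypes and are used only to set a rod value beside that of the whole retina. All mice were 2 months old. Controls were RiboTag;i75-Rod-Cre and knockouts were RiboTag;Abca4-/-;i75-Rod-Cre, so that both genotypes carried the tagged ribosomal protein Rpl22 and a Cre recombinase expressed in rods. The tag therefore depends on where that Cre is active. In translating ribosome affinity purification (TRAP), tagged ribosomes are pulled down with the messages they carry. Mice were perfused with cycloheximide, a drug that stops ribosomes where they are on an mRNA, before the retinas were taken. The sources used here do not say whether a library came from 1 mouse or from a pool, so the p-values measure only the spread between these libraries.

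Abca4 encodes an ATP-binding cassette transporter in the discs of photoreceptor outer segments. There it moves retinal, bound to a membrane lipid, to the cytosolic face of the disc, where retinol dehydrogenases can reduce it. Loss of its function in people causes Stargardt disease, in which retinal by-products build up in the retinal pigment epithelium (RPE) and photoreceptors are lost. The study asked whether rods without ABCA4 carry less message for the glycolytic enzyme pyruvate kinase, and it related changed genes to chemokine signalling.

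The libraries did not follow their labels equally well. Levels are given as CPM, a gene's share of the normalised scaled counts of its library, and are compared between libraries and not between genes. Abca4 stood at 3571, 3099 and 3116 CPM in control replicates 1 to 3, and at 12.1, 20.9 and 749 CPM in Abca4Ko replicates 1 to 3. These Abca4Ko values were 0.371%, 0.639% and 22.97% of the control mean. The library labelled Abca4Ko replicate 3 thus kept an amount of Abca4 that the other 2 knockout libraries did not have. The fit over all 6 libraries gave Abca4 a log2 difference of −5.79 (SE 1.81), which did not pass (limma adjusted p = 0.415). Without that library it was −7.63 (limma adjusted p = 1.78e-06). The library labelled Abca4Ko replicate 1 stood apart in another way. Over 9342 well-detected genes, the median distance from the mean of the other 5 libraries was 0.2075 on the log2 scale, against 0.0881 to 0.110 in the other 5 libraries, and mitochondrially encoded messages took 0.186% of its counts against 0.0472% to 0.0623%. Its weight in a fit that estimates how noisy each library is was 0.1925, against 0.923 to 2.70 for the others. Every library held Y-linked messages, and Abca4Ko replicates 1 and 3 and control replicate 3 also held Xist (32, 16 and 20 scaled counts), which was at 0 in the others. Rod messages dominated all 6 libraries, with a summed level of 20 rod markers between 198100 and 238000 CPM. Results below are given with all 6 libraries, and beside that without Abca4Ko replicate 1 or 3 where that changes them.

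Of 13104 genes tested, 143 (1.09%) passed limma with Benjamini-Hochberg adjustment, of which 94 were higher in Abca4Ko (0.717%) and 49 lower (0.374%). Among the 10939 protein-coding genes, 101 passed (0.923%), 56 higher (0.512%) and 45 lower (0.411%). All 101 had Abca4Ko and control libraries that did not overlap, as had 17.6% of all genes tested, coding or not. Genes picked for a small p nearly always show this, so it adds no support to the calls. The median rise was 0.874 on the log2 scale and the median fall was −1.0, and 21 rises and 23 falls reached at least 1. The counts rested on which libraries entered. Without Abca4Ko replicate 1, 615 genes passed (4.69%), and without replicate 3, 144 (1.1%). Of the protein-coding genes these were 4.74% and 0.969%. With replicate 2 as the single Abca4Ko library, 2.47% of all genes and 2.32% of the protein-coding genes passed. Without any 1 of the 3 controls only 30 to 37 passed, and 17 to 23 of the 101 protein-coding genes were still called. These were 13 to 17 of the 56 rises and 4 to 6 of the 45 falls, so the falls held less often. Of the 101, 95 were still called without Abca4Ko replicate 1, 60 without replicate 2 and 82 without replicate 3, and 18 were called on the TPM values. Those 18 were 15 rises and 3 falls. A group of 7 protein-coding genes (6 higher, 1 lower) passed in all 16 alternatives, among them Pcsk6, Prc1, Bcar3, Il18, Syt9 and Myo7a.

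**Figure D1:**
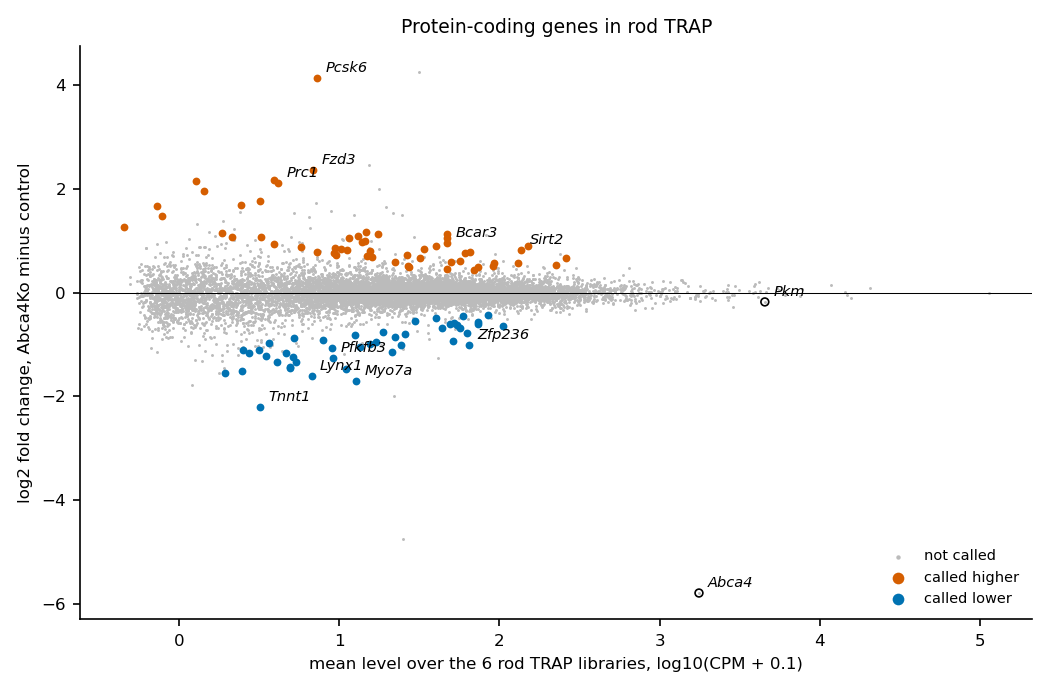
Log2 fold change of Abca4Ko against control in rod TRAP (vertical axis) by the mean level of each protein-coding gene (horizontal axis, log10(CPM + 0.1)). Coloured points passed limma at an adjusted p of 0.05 and grey points did not, labelled uncalled genes are ringed, and 1 called gene is not drawn; Abca4, at −5.79, was not called.

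The largest rises and falls named below were chosen among called genes whose libraries did not overlap. The lack of overlap given for them is thus part of the choice and no separate support. Among the genes that rose, Pcsk6, a secreted proprotein convertase that cleaves growth factor precursors, went from almost no signal to a clear one. It had 15.8, 9.71 and 17.0 CPM in the Abca4Ko libraries and 0.351, 0.349 and 0.233 CPM in control. The 3 Abca4Ko libraries were all far above the controls, at a log2 fold change of 4.14 with an SE of 0.224 (limma adjusted p = 9.55e-06). Fzd3, a Frizzled receptor for Wnt ligands, had 9.79, 15.9 and 9.40 CPM in Abca4Ko and 1.35, 1.75 and 2.50 CPM in control. The lowest Abca4Ko library was above the highest control, and the log2 fold change was 2.36 ± 0.238 (SE; limma adjusted p = 0.00078). Il18, a cytokine of the interleukin-1 family, had 6.07, 8.80 and 4.96 CPM in Abca4Ko against 1.11, 1.22 and 0.815 CPM in control. Each Abca4Ko library was above each control, and the log2 fold change was 2.17 ± 0.226 (SE; limma adjusted p = 0.000908). Prc1, which bundles microtubules in the spindle of dividing cells, had 7.00, 6.69 and 7.12 CPM in Abca4Ko and 1.23, 1.40 and 1.05 CPM in control. These libraries were close to each other within each genotype, and the log2 fold change was 2.11 ± 0.17 (SE; limma adjusted p = 0.00013). Nav2, a neuronal protein that acts on the cytoskeleton during axon growth, stood at 4.53 to 5.77 CPM in Abca4Ko and 0.878 to 1.28 CPM in control, a log2 fold change of 1.77 (limma adjusted p = 0.00125).

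Smaller rises came from genes of varied function. Fam210b, which encodes a mitochondrial membrane protein, had 56.5, 65.6 and 68.5 CPM in Abca4Ko and 31.7, 27.3 and 31.4 CPM in control, a log2 fold change of 1.06 (limma adjusted p = 0.000714). Bcar3, an adaptor of integrin signalling, had 66.6, 63.0 and 57.8 CPM in Abca4Ko and 34.3, 31.1 and 30.6 CPM in control, with a log2 difference of 0.953 ± 0.0933 (SE; limma adjusted p = 0.000714). In both genes the lowest Abca4Ko library was well above the highest control. H2aw, an H2A histone, had 26.0 to 34.8 CPM in control and 54.3 to 74.9 CPM in Abca4Ko (limma adjusted p = 0.00361). H2bu2, an H2B histone, rose from 7.55 to 11.2 CPM to between 15.9 and 24.2 CPM (limma adjusted p = 0.0236). The H2bu2 call passed in 10 of 16 alternatives. Histone genes were not examined as a list. Hr, a nuclear corepressor that thyroid hormone induces in brain, had 23.1, 21.1 and 28.1 CPM in Abca4Ko and 10.8, 9.50 and 12.1 CPM in control, a log2 fold change of 1.12 (limma adjusted p = 0.00361). Fgf11, an intracellular member of the fibroblast growth factor family, rose by 0.981 (limma adjusted p = 0.0231), and Arhgap29, which switches off small GTPases, rose by 1.06 (limma adjusted p = 0.012). Tcea3, a transcription elongation factor, stood at 12.9 to 25.9 CPM in Abca4Ko, with replicate 3 highest, and 6.76 to 8.91 CPM in control. Its log2 fold change of 1.10 was near the threshold (limma adjusted p = 0.0452) and passed in 6 of 16 alternatives.

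The falls included a pair of unconventional myosins. Myo7a, the actin motor whose loss causes Usher syndrome type 1 and that moves melanosomes, had 4.53, 6.06 and 6.44 CPM in Abca4Ko and 25.3, 16.8 and 17.4 CPM in control. Every Abca4Ko library was below every control, as the rule for naming the largest falls requires. The log2 fold change was −1.71 ± 0.183 (SE; limma adjusted p = 0.00117). Myo5b, a motor of recycling vesicles, had 4.53, 6.00 and 5.81 CPM in Abca4Ko and 22.7, 13.9 and 12.98 CPM in control, a log2 fold change of −1.48 (limma adjusted p = 0.00684). In both myosins control replicate 1 was the highest library. They were the 2 called of 18 myosin and Usher syndrome genes tested, whose median was −0.06.

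A further set of falls is described together here, a grouping made after the values were seen. Lynx1, a membrane-anchored modulator of nicotinic acetylcholine receptors, had 3.10, 4.97 and 1.60 CPM in Abca4Ko and 9.25, 9.79 and 11.1 CPM in control, a log2 fold change of −1.61 (limma adjusted p = 0.0268), and without Abca4Ko replicate 1 it was not called (limma adjusted p = 0.206). Pcsk2, the convertase that matures neuropeptides, had 1.86 to 2.62 CPM in Abca4Ko and 5.65 to 10.0 CPM in control, a log2 fold change of −1.45 (limma adjusted p = 0.012). Nell2, a secreted neural glycoprotein, stood at 1.43 to 2.86 CPM against 5.243 to 6.497 CPM, and Lmo4, a LIM-only transcriptional cofactor, at 1.86 to 2.91 CPM against 6.64 to 7.92 CPM. Their limma adjusted p were 0.0158 for Nell2 and 0.00417 for Lmo4. Dcc, a receptor for netrin, stood at 2.23 to 3.25 CPM in Abca4Ko and 5.30 to 7.92 CPM in control (log2 fold change −1.17, limma adjusted p = 0.0177). Other retinal neurons express several of these genes. In control retina Pcsk2 stood at 37.4 to 42.8 CPM, Nell2 at 61.3 to 73.9 CPM and Lynx1 at 281.6 to 321.1 CPM, within the separate scaling of that fraction. Over all 45 protein-coding genes called lower, 64.4% stood at a higher CPM in control retina than in control rod TRAP, against 62.3% of all protein-coding genes tested and 78.2% of those called higher, so the falls were near the background in this respect. The summed level of the ganglion cell marker list in rod TRAP was 229.7, 258.1 and 230.4 CPM in Abca4Ko and 301.6, 284 and 294.7 CPM in control. On this sum, of 1 list among 12 cell type lists, the libraries did not overlap. Of all genes tested, 17.6% also showed no overlap, so this is a description and no separate support. Of its 11 members tested, 6 had a negative and 5 a positive log2 fold change (median −0.24), so the members did not all share the fall of the sum. No ganglion cell marker was called with all 6 libraries. Sncb was called lower without Abca4Ko replicate 1 (limma adjusted p = 0.012), in a fit that called 4.69% of all genes. The part of other neurons in the falls was not tested.

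The remaining falls included metabolic and regulatory genes. Pfkfb3, whose enzyme makes fructose 2,6-bisphosphate, the strongest activator of phosphofructokinase, had 3.97, 4.51 and 7.12 CPM in Abca4Ko and 11.9, 13.7 and 12.9 CPM in control. The log2 fold change was −1.26 ± 0.192 (SE; limma adjusted p = 0.012). Tyro3, a receptor kinase of the TAM family, whose ligands bind phosphatidylserine on outer segments and dying cells, had 10.7, 16.8 and 11.9 CPM in Abca4Ko and 35.7, 26.3 and 26.3 CPM in control (log2 fold change −1.15, limma adjusted p = 0.012). Zfp236, a zinc finger gene, had 36.6, 37.4 and 57.2 CPM in Abca4Ko and 84.7 to 87.7 CPM in control (log2 fold change −1.01, limma adjusted p = 0.012). Here replicate 3 lay nearest to control, and without replicate 1 the limma adjusted p was 0.113. Zfp27, Arfgef3 and Zgrf1, a DNA helicase gene, had log2 fold changes of −1.06, −1.07 and −1.33, with limma adjusted p of 0.0363, 0.0301 and 0.0192. Without Abca4Ko replicate 1 Zfp27 was not called (limma adjusted p = 0.0897). Tnnt1, the troponin T of slow muscle, had 0.372, 0.743 and 0.855 CPM in Abca4Ko and 10.2, 4.25 and 2.39 CPM in control, with one control far above the other two. Its log2 fold change of −2.21 (limma adjusted p = 0.0397) passed in 4 of 16 alternatives, and the adjusted p was 0.242 without Abca4Ko replicate 1 and 0.118 without replicate 3.

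**Figure D2:**
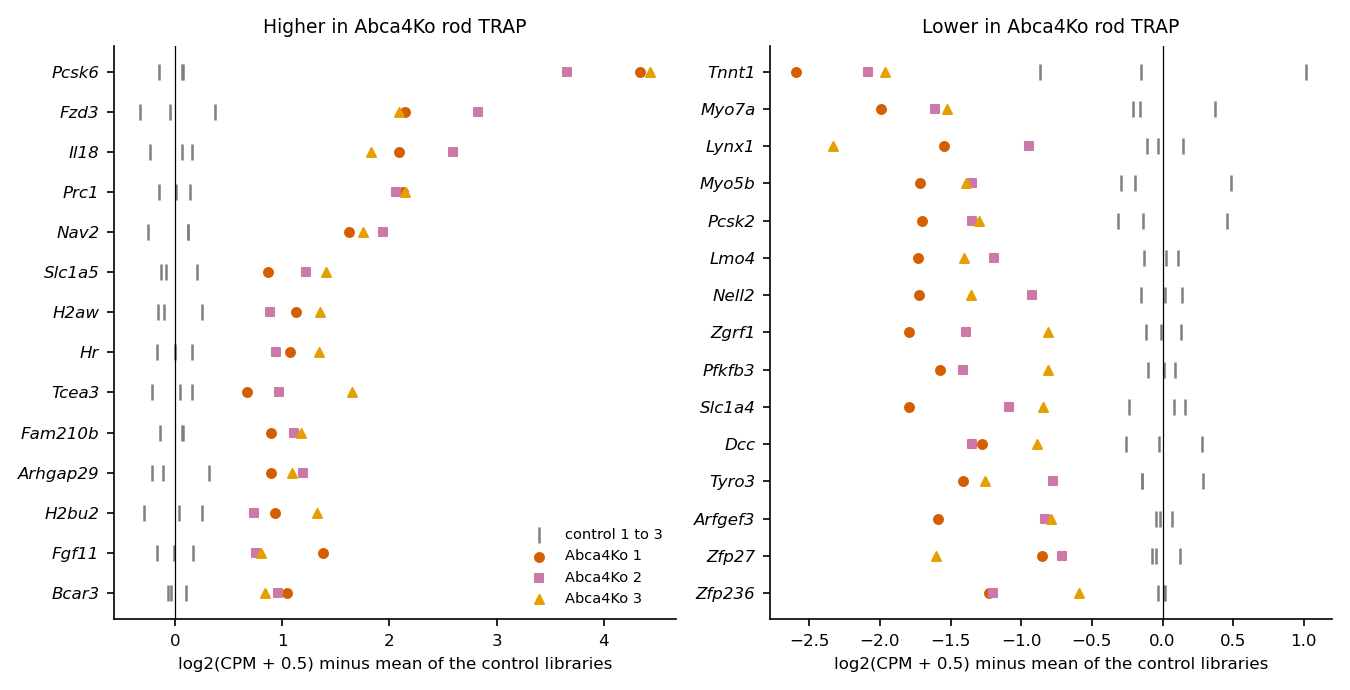
Named rises (left) and falls (right) in each rod TRAP library, as log2(CPM + 0.5) minus the mean of the control libraries (horizontal axis); grey ticks are the 3 controls and coloured symbols the 3 Abca4Ko libraries, and not every gene of the selection is drawn. The Abca4Ko libraries of Pcsk6 (9.71 to 17.0 CPM) lie far to the right of the controls, and those of Myo7a lie to the left of every control.

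The machinery of rod light detection showed no called gene. Gnat1, the alpha subunit of rod transducin, had a 95% interval of −0.15 to 0.34 for its log2 fold change. None of 21 rod phototransduction genes passed even an unadjusted p of 0.05, against 10.4% of all genes tested, and their log2 fold changes lay between −0.16 and 0.31. None was called among 13 genes of the visual cycle (median 0.06), 15 of the outer segment discs (median 0.02), 15 photoreceptor transcription factors (median 0.06), 38 of the cilium and intraflagellar transport (median 0.02), 23 of the ribbon synapse (median −0.04) or 9 of the ABCA transporter family (median −0.10). The deleted gene Abca4 is itself an uncalled member of the visual cycle and ABCA lists. Without Abca4Ko replicate 3 it was called lower. The median of all genes tested was 0.00044. Rbp3, which carries retinoids between photoreceptors and RPE, had a log2 fold change of −0.10 (limma adjusted p = 0.7795), and without Abca4Ko replicate 1 it was called lower (limma adjusted p = 0.0427). In that fit, which called 4.69% of all genes, the rod phototransduction gene Guca1b, the ribbon synapse gene Cplx4 and 2 disc genes (Fscn2 and Prom1) were also lower and 3 photoreceptor transcription factors (Prdm1, Samd7 and Samd11) were higher.

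Cone genes showed another pattern. Of 14 cone phototransduction genes, 1 was called, Gngt2, the gamma subunit of cone transducin. It had 22.1, 20.4 and 17.4 CPM in Abca4Ko and 11.5, 12.6 and 12.3 CPM in control, a log2 fold change of 0.692 (limma adjusted p = 0.0213). Of the 14, 11 had a positive log2 fold change, 7 passed an unadjusted p of 0.05 against 10.4% of all genes, and the median was 0.288. Some of the 14 are also in the rod phototransduction list, so not all are particular to cones. Kcne2, a potassium channel subunit in the cone marker list, also rose, from 10.8 to 11.5 CPM in control to between 17.0 and 20.8 CPM in Abca4Ko (log2 fold change 0.698, limma adjusted p = 0.0177). Opn1sw, the short-wavelength cone opsin, had 119.8, 166 and 157.8 CPM in Abca4Ko and 104.6, 109.1 and 105.2 CPM in control. All Abca4Ko libraries were above all controls, but replicate 1 least so, and the log2 fold change of 0.46 did not pass (limma adjusted p = 0.118). Without that library it was 0.604 (limma adjusted p = 1.63e-06), and 6 of the 14 genes were called higher, against 4.69% of all genes called in that fit: Gnat2, Opn1mw, Gngt2, Cngb3, Opn1sw and Arr3. The summed level of the cone marker list was 622, 737.1 and 723.4 CPM in Abca4Ko and 636.5, 557.2 and 555.6 CPM in control, so on the sum replicate 1 lay within the controls. In retina none of these 7 genes was called, with log2 fold changes of −0.65 for Opn1mw, −0.36 for Gnat2, −0.23 for Gngt2, −0.22 for Arr3, −0.21 for Opn1sw, 0.17 for Kcne2 and 0.48 for Cngb3. The cells that gave the cone messages in a rod pull-down were not identified.

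Glycolysis was examined because of the question on pyruvate kinase. Pkm, which encodes both muscle-type pyruvate kinases, had 5472, 3492 and 3921 CPM in Abca4Ko and 4912, 4796 and 4626 CPM in control. Replicates 2 and 3 were below all controls and replicate 1 was above them, and the log2 fold change of −0.18 (SE 0.141) did not pass (limma adjusted p = 0.719). Without replicate 1 it was −0.37 (limma adjusted p = 0.000312). The tables count per gene, so the PKM1 and PKM2 messages cannot be told apart. Of 26 glycolysis genes, Pfkfb3 was the 1 called, and the median was −0.07. The medians per library, relative to control, were 0.0858, −0.242 and −0.102 in Abca4Ko replicates 1 to 3. Without replicate 1, 7 glycolysis genes were called lower and none higher, with a median of −0.14, in a fit that called 4.69% of all genes (261 lower). Gpi1, which interconverts glucose 6-phosphate and fructose 6-phosphate, showed the same order of libraries, with 819.2, 534.1 and 544.7 CPM in Abca4Ko and 763.4 to 792.6 CPM in control. Its log2 fold change without replicate 1 was −0.53 (limma adjusted p = 2.15e-06).

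Other metabolic lists held few calls. None was called among 36 genes of pyruvate and TCA cycle metabolism (median 0.02), 30 of cholesterol synthesis and uptake (median 0.05) or 32 of lipid synthesis (median 0.07). The fit without Abca4Ko replicate 1, which called 4.69% of all genes, called the lipid genes Lpcat1, Scd1 and Scd2 and the sterol gene Fdft1 higher. Without replicate 3, in a fit that called 1.1% of all genes, Pdk1, an inhibitor of pyruvate dehydrogenase, was called lower (limma adjusted p = 0.0294). Of 26 amino acid transporters, 1 rose and 2 fell. Slc1a5, which exchanges glutamine and other neutral amino acids, had 16.5, 21.1 and 24.3 CPM in Abca4Ko and 8.02, 8.27 and 10.3 CPM in control (log2 fold change 1.17, limma adjusted p = 0.00649). Its close relative Slc1a4, a carrier of serine and alanine, moved the other way, with 1.74, 3.14 and 3.82 CPM in Abca4Ko and 6.05 to 8.14 CPM in control (log2 fold change −1.24, limma adjusted p = 0.0331). The Slc1a4 call passed in 7 of 16 alternatives and that of Slc1a5 in 12. Slc7a1, a carrier of arginine and lysine, fell from between 28.3 and 35.3 CPM to between 16.1 and 20.1 CPM (limma adjusted p = 0.0151). Of 16 sirtuin and NAD genes, Sirt2, a cytoplasmic deacetylase, had 199.7, 156.4 and 168.6 CPM in Abca4Ko and 108.9, 96.7 and 91.6 CPM in control, with a log2 difference of 0.813 ± 0.106 (SE; limma adjusted p = 0.00539). In the same list Nmnat3, a mitochondrial enzyme of NAD synthesis, fell from between 4.45 and 5.07 CPM to between 2.05 and 2.34 CPM (limma adjusted p = 0.0183).

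In several lists Abca4Ko replicate 1 stood above the other libraries, among them those of ribosomal and mitochondrial genes. Of 80 cytosolic ribosomal protein genes, 77 had a positive log2 fold change with a median of 0.217, yet none was called higher. The medians per library were 0.5225, 0.0874 and 0.0413, and 76 of the 80 (95.0%) were above all controls in replicate 1 against 29 and 12 in replicates 2 and 3. Without replicate 1 the median was 0.0727. Rpl29 was the 1 called member and went the other way, from between 50.7 and 57.6 CPM in control to between 30.7 and 39.1 CPM in Abca4Ko (log2 fold change −0.68, limma adjusted p = 0.0157). The 13 mitochondrially encoded messages had a median of 0.559 with none called, and per library the medians were 1.958, 0.00635 and −0.305. Without replicate 1 their median was −0.157, so the sign of that median rested on 1 library. Yet mt-Nd5 and mt-Nd6 were called higher in that fit, which called 4.69% of all genes, and none of the 13 lower. The same held for 70 nuclear genes of oxidative phosphorylation, with none called, a median of 0.0745 and medians per library of 0.345, −0.0517 and −0.0978. Proteasome genes gave 0.222, −0.0596 and −0.0882, with 31 of 36 (86.1%) above all controls in replicate 1 against 4 and 5. For the rod marker list the medians were 0.219, −0.0231 and −0.0689. The cause was not tested.

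**Figure D3:**
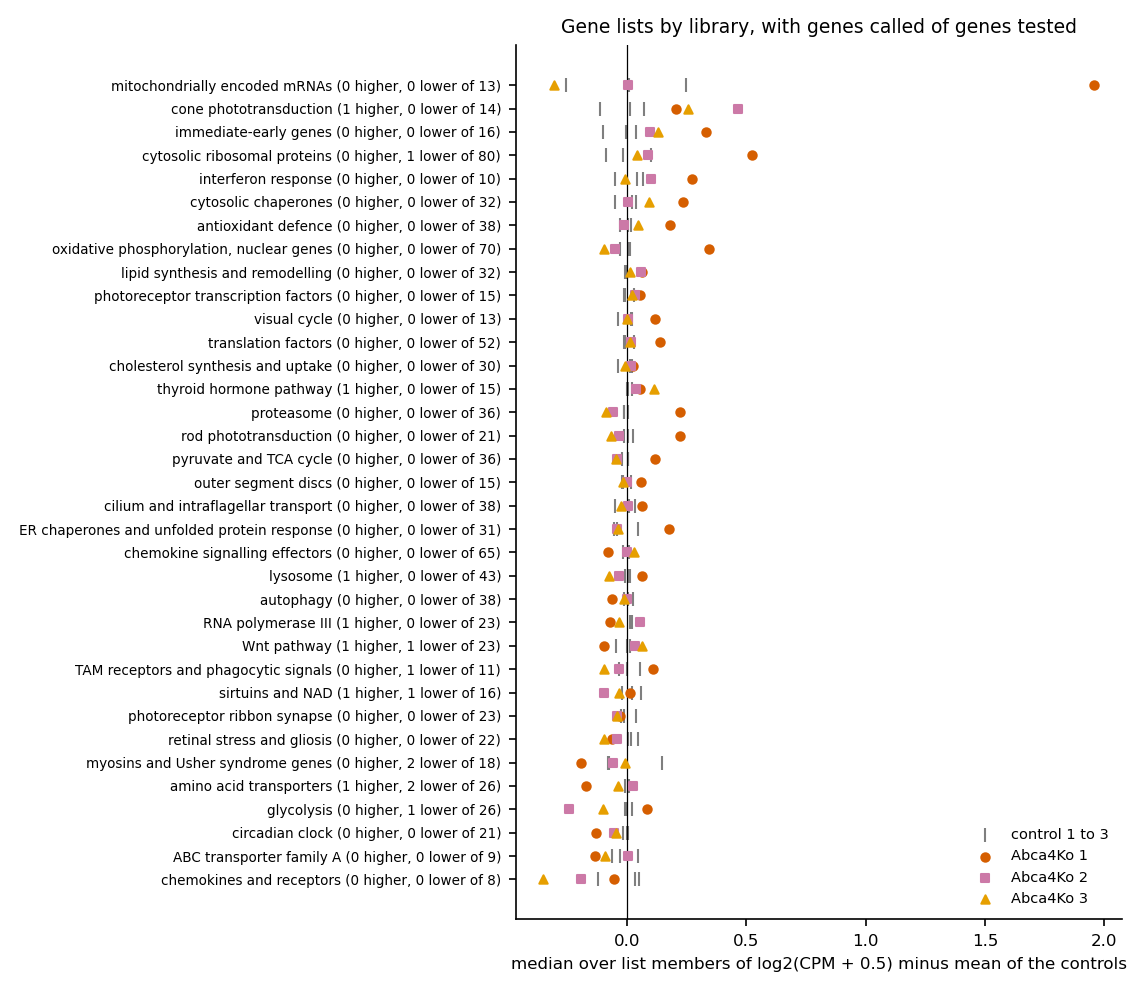
Median log2 difference from the control mean over the tested genes of each list (horizontal axis), with grey ticks for the 3 controls and a coloured symbol for each Abca4Ko library, and the counts of called and tested genes beside each name. Abca4Ko replicate 1 lies to the right of the other libraries for mitochondrially encoded messages (1.958) and cytosolic ribosomal proteins (0.5225).

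Protein synthesis and turnover showed isolated calls. None of 52 translation factors (median 0.06), 36 proteasome genes (median 0.03), 32 cytosolic chaperones (median 0.09), 31 genes of endoplasmic reticulum chaperones and the unfolded protein response (median 0.02), 38 autophagy genes (median −0.01) or 38 antioxidant genes (median 0.09) was called. Without Abca4Ko replicate 1, in which fit 4.69% of all genes passed, Psmb5 and Psmd8 of the proteasome were lower and Eif4ebp2, Atg101, Prdx2 and Gclm were higher. Of 23 genes of RNA polymerase III, Polr3d, a core subunit, rose from between 9.61 and 13.2 CPM to between 19.3 and 20.3 CPM (log2 fold change 0.798, limma adjusted p = 0.0159). Tcn2, the carrier of vitamin B12 counted among 43 lysosomal genes, rose from 40.2, 49.4 and 45.5 CPM in control to 87.1, 64.0 and 81.9 CPM in Abca4Ko (log2 fold change 0.773, limma adjusted p = 0.0154).

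Chemokine genes were mostly too low to be measured in rod TRAP. Of 60 chemokine and receptor genes, 8 passed the filter on low values and none was called (median −0.16). Cx3cl1, the membrane-bound chemokine that microglia sense, had a log2 fold change of −0.69 (limma adjusted p = 0.3655), and Ccl25 one of 0.39 (limma adjusted p = 0.476). Of 88 downstream effectors, 65 were tested, none was called, and the median was −0.0025. In the complement list 3 of 24 genes were tested and none was called (median −0.16). None was called either among 10 interferon response genes (median 0.12) and 22 genes of retinal stress and gliosis (median −0.06). Of the last list, Bcl2 was called higher without Abca4Ko replicate 1 (limma adjusted p = 0.00716), in a fit that called 4.69% of all genes. Il18, given above, was thus a cytokine gene that rose outside these lists. Of 16 immediate-early genes 5 passed an unadjusted p of 0.05, against 10.4% of all genes, and none was called. Ier2 was called higher without Abca4Ko replicate 3, in a fit that called 1.1% of all genes. Egr1, an activity-induced transcription factor, had 85.6, 4.74 and 6.15 CPM in Abca4Ko and 4.10, 2.68 and 2.74 CPM in control, so its size came from replicate 1. Without that library, in the fit that called 4.69% of all genes, Egr1 and Nr4a1 were called higher.

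Signalling lists held 1 or 2 called members each. Of 23 Wnt pathway genes, Fzd3 rose and Ccn4, a secreted Wnt target, fell from between 59.4 and 79.2 CPM to between 38.7 and 46.5 CPM (log2 fold change −0.68, limma adjusted p = 0.0189). Among 7 proprotein convertases Pcsk6 rose and Pcsk2 fell, at opposite ends of the list. Tyro3 was the 1 called of 11 genes of TAM receptors and phagocytic signals, Hr the 1 called of 15 in the thyroid hormone pathway, and none of 21 clock genes was called (median −0.09).

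Among the marker lists of other retinal cells, none but the cone list held a called gene with all 6 libraries. Müller glia markers summed to 249, 170.3 and 152 CPM in Abca4Ko and 157.6 to 180.6 CPM in control, and RPE markers to 30.1, 19.7 and 14.98 CPM and 12.8 to 25.2 CPM, with replicate 1 highest in each. Microglial markers summed to 17.8 to 21.5 CPM in Abca4Ko and 16.7 to 20.1 CPM in control, and blood markers to between 1.75 and 7.13 CPM in all libraries. Lens markers marked single libraries without regard to genotype. They summed to 1.49, 105.6 and 85.1 CPM in Abca4Ko and 89.4, 1.40 and 2.56 CPM in control, and Crygf, Cryga and Lim2 were at 0 in all 6. The median over 9 tested lens markers was 1.01 with none called, and it was 2.03 without Abca4Ko replicate 1. Bipolar, amacrine, horizontal and vascular lists held no call, with medians of −0.13, −0.26, −0.11 and 0.00018. The vascular list summed to 1835 to 2275 CPM in Abca4Ko and 2005 to 2055 CPM in control, nearly all of it Vtn (vitronectin), at 1829 to 2265 CPM over the 6 libraries. Fewer cells of a type and less message per cell cannot be told apart in such sums.

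**Figure D4:**
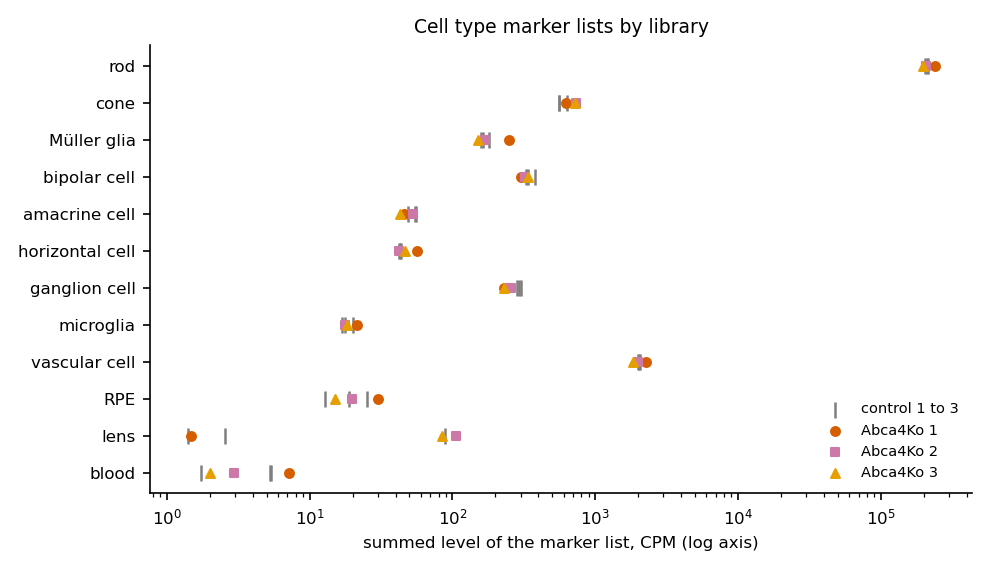
Summed CPM of each cell type's marker list (log axis) in each rod TRAP library, with grey ticks for controls and coloured symbols for Abca4Ko. Rod markers stay between 198100 and 238000 CPM in all libraries, and lens markers split 3 libraries at 85.1 to 105.6 CPM from 3 at 1.40 to 2.56 CPM.

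To see how each library followed calls it had no part in, the fit was repeated without it. Of the 144 genes called without Abca4Ko replicate 3, 141 (97.9%) lay on the called side of the control mean in that library, with a median of 83.1% of the fitted shift. The genes were called against the same controls that give the baseline here, which by itself moves a left-out library to the called side, so these shares are a description with no value for no change. For replicate 2 the figures were 113 of 119 (95%) and 77.7%. Replicate 1 followed least, with 462 of 615 (75.1%) and 62.4%. When a control was left out, 96.7% to 100% lay on the called side with medians of 91.9% to 99.4%. Over the 101 called protein-coding genes, the library nearest to control was replicate 1 in 31, replicate 2 in 35 and replicate 3 in 35. These genes were called with all 3 of those libraries in the fit, which favours genes on which they agree. The even split is thus no separate support.

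Called protein-coding genes were spread unevenly over the chromosomes. Chromosome 7 held 22 of 821 tested (2.68%, 13 higher and 9 lower), chromosome 18 7 of 300 (2.33%) and chromosome 14 7 of 369 (1.9%), while chromosome 13 held 0 of 413, against 0.923% of all protein-coding genes. Without Abca4Ko replicate 1, chromosome 7 held 63 calls (7.67%) and chromosome 13 held 16 (3.87%), against 4.74% of all protein-coding genes. Chromosome 3, which carries Abca4, held 9 of 498 (1.81%). In gene order along it, Arhgap29 was the nearest tested protein-coding gene on one side of Abca4 and Bcar3 the third on the other side, and both were higher in Abca4Ko. Their place was looked up after the values were seen. The strain background around the deleted gene was not examined, and its part was not tested.

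**Figure D5:**
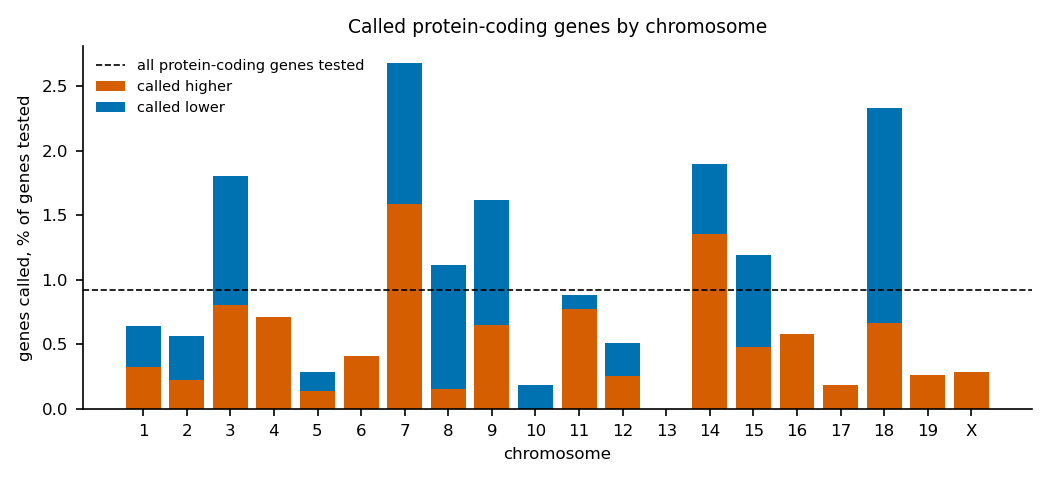
Percent of tested protein-coding genes called on each chromosome in rod TRAP, with rises and falls stacked from 0 and a dashed line at the 0.923% of all protein-coding genes. Chromosome 7 reaches 2.68%, chromosome 3 with Abca4 1.81%, and chromosome 13 has none.

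Among other classes of RNA, 27 of 1077 pseudogenes were called (2.51%), all higher, and 10 of 714 long noncoding RNAs (1.4%), 6 higher and 4 lower. Reads of a pseudogene and its parent gene can be exchanged in counting, so these are uncertain.

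In retina, 18 of 16964 genes were called (0.106%). Of the genes described above, Prc1 was also called there, at 3.82 to 6.02 CPM in Abca4Ko and 0.747 to 1.004 CPM in control (log2 fold change 1.88, limma adjusted p = 0.0214), and so were Egr1 (log2 fold change 1.92, limma adjusted p = 0.0214) and Tnnt1 (log2 fold change −1.23, limma adjusted p = 0.0405). Myo7a had a retina log2 fold change of −1.70 and Lynx1 of −1.22, close to those in rods, but neither passed (limma adjusted p = 0.1285 and 0.0692). Myo5b, Pcsk2 and Lmo4, lower in rods, had retina log2 fold changes of −0.13, −0.14 and −0.25, with limma adjusted p of 0.7836, 0.7759 and 0.515. The test of the difference between the fractions called 1 of 17273 genes (0.00579%), Pcsk6. In retina it had 17.7, 17.2 and 24.6 CPM in Abca4Ko and 22.4, 32.3 and 33.5 CPM in control, with a log2 fold change of −0.56 (limma adjusted p = 0.3998). In control mice Pcsk6 message was therefore present in the retina and nearly missing from rod TRAP, while in Abca4Ko it was at similar CPM in both fractions, each scaled on its own. For the other genes a difference between rods and retina was not shown, in a fit that did not pair the 2 fractions of a replicate.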

How the data were processed

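Retinal RNA of 2-month-old mice was sequenced after low-input cDNA synthesis, and 6 rod TRAP libraries were analysed, with 6 retina libraries beside them. Reads were mapped to GRCm39; the submitters' processing notes name CASAVA 1.8.2, HISAT2, edgeR and DESeq2 without their roles. The authors deposited a scaled count per gene, a score made by scaling each library of a fraction to a common total and rounding, and a table of TPM made by the authors to 1 decimal. Rod TRAP totals are 17096515 to 17097707, so they do not give the read depth, and no counting interval is printed. Scaled counts were normalised with TMM factors (trims 0.3 and 0.05) and fitted as log2(CPM + 0.5) with limma 3.58.1 (trend, robust) in R 4.3.3, for genes with at least 10 scaled counts in at least 3 libraries. Tests were two-sided with Benjamini-Hochberg adjusted p under 0.05 over all genes tested. Near 0 such log2 differences are smaller than the true fold. The interaction of genotype and fraction was fitted on all 12 libraries as if they were independent. Rod TRAP and retina libraries of the same genotype and number may share a sample, and this pairing was not modelled. Abca4Ko replicate 3 kept Abca4 in both fractions (749 CPM in rod TRAP and 419.5 CPM in retina). The code was tested on simulated data.

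Gene types and chromosomes came from GENCODE M21 (GRCm38) and RefSeq by symbol, with 12866 of 13104 tested and 139 of 143 called genes matched; since the builds differ, no positions are given. Named genes are the called protein-coding genes with the largest change, 15 up and 15 down, that have unshared symbols, libraries that do not overlap and a mean of at least 5 CPM in the higher group (47 rises and 38 falls qualified), Abca4, Pkm, and members of the gene lists. Gpi1, Syt9, Cx3cl1, Egr1, Gnat2, Opn1mw, Opn1sw, Cngb3 and Arr3, and the genes given as called only without Abca4Ko replicate 1 or 3, were named after their values were seen. A few of the genes so chosen are left out of the text. The members and lists were chosen with earlier results of these data known. Groups came from the labels, and alternatives were another scaling, pseudocount, filter, model or table and leaving out each library. Python 3.11.15 with numpy 2.4.6, pandas 2.3.3 and matplotlib 3.10.9 was used for the other steps.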

Additional observations from a re-analysis of the deposited data

Results flagged for a closer look

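Pcsk6 met the test of a difference between rod TRAP and retina. The genotype difference in rods exceeded that in retina by 4.83 on the log2 scale (limma adjusted p = 3.17e-06), with a log2 fold change of 4.14 in rods and −0.56 in retina. All 3 Abca4Ko libraries were above all controls in rods, and of those in retina 2 were below all controls.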

How the results depend on the processing

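The count of 143 called genes (94 higher, 49 lower) stayed within 1.5 times under the authors' scaling alone (113), median-of-ratios factors (143), a pseudocount of 2 (137), a filter at 50 scaled counts (113) and no low-count filter (197, though its count of lower genes moved to 77). It moved to 94 with all 12 libraries in the fit (62 higher, 32 lower), to 42 without limma's trend and robust options (31 and 11), to 43 on log2(TPM + 1) (37 and 6), and to 770 with sample weights (437 and 333). Leaving out 1 library gave 30 to 615 calls (24 to 354 higher, 6 to 261 lower). Without Abca4Ko replicates 1 and 3 together, chosen after seeing the data, it was 324 (173 and 151). There a single Abca4Ko library is assumed to vary like the controls. The cause of these changes was not tested. The Abca4 log2 fold change ranged from −7.63 to −4.69 with 1 library left out, passing without replicate 3, and was −7.25 without replicates 1 and 3. The interaction called 2 genes on TPM and 1 to 2 with 1 library left out. Libraries of equal number in the 2 genotypes did not deviate together (correlations −0.136, 0.0619 and −0.206). A replicate block gave 139 calls (91 higher, 48 lower), of which 119 were among the 143. No named gene that was called changed sign under an alternative; uncalled ones did, Gnat1 and mt-Co1 without Abca4Ko replicate 1 among them. The read depth behind the scaled counts is not known from the totals, which limits what can be said of genes under the filter, most chemokines among them.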

Other observations

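Protein-coding genes with a log2 fold change beyond 1.3 and a mean above 5 CPM in the higher group, but no call, numbered 14, of which 11 were higher and 3 were lens markers. They were looked at after their values were seen. In several of them a single library stood apart within Abca4Ko. Eps8l1 instead was far below every control in all 3 Abca4Ko libraries, and the lens markers split the libraries across both genotypes. Armh4 had 91.9, 2.46 and 90.9 CPM in Abca4Ko replicates 1 to 3 and 0.816 to 1.16 CPM in control. In retina the same gene had 51.2, 8.18 and 37.1 CPM in Abca4Ko and 7.89 to 9.20 CPM in control, so that replicate 2 lay within the controls in retina, while in rod TRAP it was above each control but far below replicates 1 and 3. Eps8l1, an actin regulator, had 3.10, 2.51 and 0 CPM in Abca4Ko and 34.1, 56.6 and 54.3 CPM in control (log2 fold change −4.76, limma adjusted p = 0.170). Without replicate 3, where it was at 0, the adjusted p was 5.83e-06. In retina Eps8l1 had 0.413 to 4.47 CPM in Abca4Ko and 40.7 to 69.7 CPM in control. Uaca had 9.55, 40.9 and 30.4 CPM in Abca4Ko and 2.97 to 4.48 CPM in control (limma adjusted p = 0.190, and 2.86e-10 without replicate 1). Osbpl6, a lipid-binding protein gene, had 23.6, 11.2 and 1.42 CPM in Abca4Ko and 30.8 to 33.7 CPM in control, with replicate 3 lowest. Rab37 had 12.7, 22.7 and 81.7 CPM against 8.49 to 10.8 CPM, with replicate 3 highest. Selenbp1 had 68.9, 19.03 and 15.04 CPM against 7.98 to 10.7 CPM, with replicate 1 highest.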
